A study of Homo sapiens with 36 samples.

Results

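Stand-alone long non-coding RNA (lncRNA) promoters were defined as the starts of GENCODE genes of type lncRNA on chromosomes 1 to 12 that lay more than 5 kb from every annotated start site of a protein-coding gene. Of 39438 annotated genes on these chromosomes, 8096 met the rule. They were drawn from 11907 lncRNA genes, of which the other 3811 had a coding start within 5 kb, and they were set beside 12573 protein-coding genes. The rule used the annotation and no measured value. A start was scored as carrying a target when a deposited peak of that target overlapped the 1 kb to either side of it.

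To compare promoter marks and AP-1 binding in cancerous and non-cancerous lung epithelial cells, the lines A549 and BEAS-2B (B2B) were profiled by ChIP-seq, the sequencing of DNA recovered with an antibody against a chromatin protein or mark. A549 is an established human lung adenocarcinoma line, and B2B is an immortalized human bronchial epithelial line that is not cancerous. Neither line was given a treatment in the labels, and each stands for the single line that it is. In both lines the targets were RNA polymerase II (pol II), the histone marks H3K4me3 and H3K27ac, the Mediator subunit Med1, and the AP-1 subunits JunB, Jun and JunD, while CTCF and the cohesin subunit Rad21 were analysed here in B2B. The labels list 2 replicates for each of these 16 combinations, but each deposited list was called on the merged replicates. No value below therefore has a replicate error, no p-value is given, and the 95% intervals cover counting error over starts only.

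Promoters of lncRNA genes are bound by the same general machinery as those of coding genes: pol II is recruited, and the nucleosomes around an active start carry H3K4me3 and H3K27ac. Many lncRNA genes arise from the divergent side of a coding promoter and share its open chromatin, which is why a distance from coding starts was required here. The remaining genes, far from coding starts, include enhancer-like transcripts, hosts of small nucleolar RNAs and microRNAs, and long nuclear RNAs such as MALAT1. AP-1 is a dimer of Jun and Fos family proteins that is known for binding distal regulatory elements through the sequence TGAGTCA.

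The promoter sequences of 5 of these genes are shown first, because the results below divide the starts by their content of the dinucleotide CG. Each is 300 bases of hg38, 250 before the start and 50 from the start on, written 5′ to 3′ on the strand of the gene, with CG in capitals. SNHG8, a host of small nucleolar RNA, and LINC00882 carried H3K4me3 in both lines. LINC02406 and ENSG00000290319 carried it in A549 and not in B2B. LINC02362 carried it in B2B and not in A549.
SNHG8 (chr4:118278453-118278752, plus strand): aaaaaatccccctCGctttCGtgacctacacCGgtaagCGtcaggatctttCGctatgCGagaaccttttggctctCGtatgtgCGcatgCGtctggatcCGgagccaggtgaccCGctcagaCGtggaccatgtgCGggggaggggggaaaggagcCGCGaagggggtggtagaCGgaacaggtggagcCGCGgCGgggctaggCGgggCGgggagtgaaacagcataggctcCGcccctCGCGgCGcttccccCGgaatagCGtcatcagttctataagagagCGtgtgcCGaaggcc
LINC00882 (chr3:107240622-107240921, minus strand): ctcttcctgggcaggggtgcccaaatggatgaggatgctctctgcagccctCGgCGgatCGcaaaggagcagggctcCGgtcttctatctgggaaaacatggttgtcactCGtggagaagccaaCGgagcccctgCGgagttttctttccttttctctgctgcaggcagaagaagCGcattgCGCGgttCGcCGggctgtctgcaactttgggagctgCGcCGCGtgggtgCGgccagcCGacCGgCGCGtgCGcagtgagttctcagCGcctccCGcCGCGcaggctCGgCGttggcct
LINC02406 (chr12:39145433-39145732, minus strand): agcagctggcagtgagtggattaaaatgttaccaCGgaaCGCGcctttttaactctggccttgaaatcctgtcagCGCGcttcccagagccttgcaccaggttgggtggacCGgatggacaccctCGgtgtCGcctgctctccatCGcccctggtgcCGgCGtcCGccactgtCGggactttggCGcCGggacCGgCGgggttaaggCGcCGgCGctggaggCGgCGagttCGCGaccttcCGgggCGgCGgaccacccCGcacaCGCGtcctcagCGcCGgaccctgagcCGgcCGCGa
ENSG00000290319 (chr7:129780160-129780459, plus strand): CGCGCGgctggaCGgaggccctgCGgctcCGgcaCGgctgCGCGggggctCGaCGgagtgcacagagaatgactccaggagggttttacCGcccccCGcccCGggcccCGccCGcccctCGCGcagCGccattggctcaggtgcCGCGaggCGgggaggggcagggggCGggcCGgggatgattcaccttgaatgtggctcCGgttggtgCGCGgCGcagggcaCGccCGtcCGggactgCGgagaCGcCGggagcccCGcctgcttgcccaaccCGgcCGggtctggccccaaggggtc
LINC02362 (chr4:184382367-184382666, minus strand): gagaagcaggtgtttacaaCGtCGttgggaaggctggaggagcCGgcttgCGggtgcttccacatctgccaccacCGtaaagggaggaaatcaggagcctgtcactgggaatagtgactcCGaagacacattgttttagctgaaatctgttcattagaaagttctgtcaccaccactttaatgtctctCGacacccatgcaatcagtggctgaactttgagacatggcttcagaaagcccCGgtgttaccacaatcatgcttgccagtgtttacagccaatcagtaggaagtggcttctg
The windows of SNHG8 and ENSG00000290319 held 29 and 37 CG dinucleotides, and that of LINC02362 held 8.

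On chromosomes 1 to 12 the lists held between 6206 peaks for JunD in B2B and 42595 for CTCF in B2B. Numbers of reads per library were not given in the sources used here. The number of reads stacked at each summit was solved from the fold enrichment and p-value of the peak, and it came out whole to within 0.05 reads for every peak at the starts. At stand-alone lncRNA starts its median was 93.0 reads for H3K4me3 in A549 and 88.0 reads in B2B. The background of the caller at the same peaks had a median of 3.31 reads in A549 and 19.4 reads in B2B, and for pol II of 2.36 and 10.3 reads. For Med1 the background was 2.09 and 2.24 reads in A549 and B2B, and for Jun 1.51 and 1.72 reads. The part of this background in the differences between the lines given below was not tested. As a check of the labelled cell types, H3K4me3 lay at the starts of 5 of 5 epithelial and 3 of 3 mesenchymal marker genes (VIM, CDH2 and ZEB1) in both lines and at 0 of 2 blood and 0 of 2 endothelial markers. Of 3 basal airway markers, TP63 carried it in A549 and none did in B2B, and of 4 alveolar markers 2 did in A549 and 1 in B2B.

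The 8096 starts were spread thinly and were mostly little described. Their median distance to a coding start was 53.7 kb, with a range from 5002 bp to 2.93 Mb, and the median gene length was 8.82 kb. A given symbol existed for 2308 genes (28.5%), and 5271 genes had a single annotated transcript. In all, 6146 starts lay outside coding genes, 1402 inside a coding gene on the opposite strand and 548 inside a coding gene on the same strand. Starts less than 2 kb apart formed clusters in which 707 of the genes lay, so that the 8096 starts represent 7727 separate places and some peaks were counted for more than 1 start. Another 419 starts had the start of a further gene type, such as a pseudogene or small RNA, within 1 kb.

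Most stand-alone lncRNA starts carried no peak. At 6039 of them (74.6%) none of the 16 lists had a peak within 1 kb, at 2057 at least 1 list had one, and at 9 all 16 lists did. These counts were taken at stand-alone lncRNA starts only, so they have no share over all gene starts beside them. H3K4me3, the mark of active promoters, lay at 12.3% of the starts in A549 (95% Wilson interval 11.6 to 13.1) and at 7.29% in B2B (6.74 to 7.87). Over all 39438 gene starts these shares were 32.5% and 25.9%. Pol II was found at 11.9% of the starts in A549 and 6.37% in B2B, against 30.3% and 20.7% of all gene starts. H3K27ac was found at 12.6% and 9.45%, against 32.0% and 26.9%. Med1 lay at 7.39% and 7.89%, against 22.2% and 24.9%.

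At coding starts each of these marks was several times more frequent. H3K4me3 marked 66.6% of coding starts in A549 and 56.0% in B2B, so that stand-alone lncRNA starts were lower by 54.3 percentage points in A549 (−54.3, interval −55.4 to −53.2) and by 48.7 points in B2B (−48.7, interval −49.7 to −47.7). lncRNA starts within 5 kb of a coding start resembled coding starts, with H3K4me3 at 59.8% in A549 and 49.9% in B2B. There was no step at the 5 kb limit itself. Among the 100 lncRNA starts just past it, between 5002 and 5379 bp away, 12% carried H3K4me3 in A549 and 6% in B2B, and among the 100 just within it, between 4566 and 4998 bp away, 14% and 6% did.

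**Figure D1:**
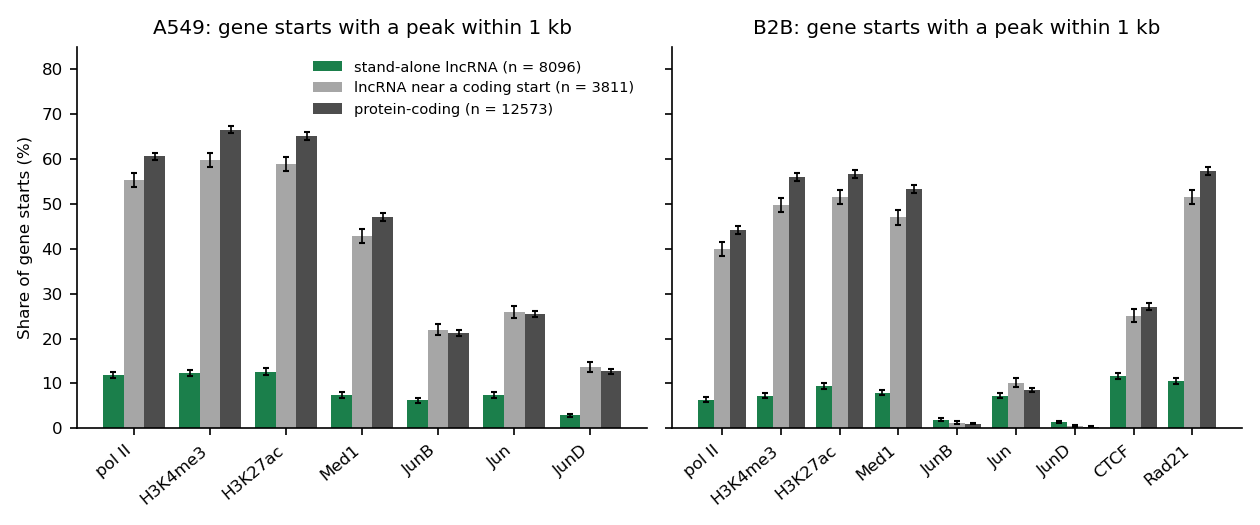
Share of gene starts with a peak within 1 kb (percent, y axis) for each target (x axis) in A549 and B2B, for stand-alone lncRNA, lncRNA near a coding start and protein-coding genes, with 95% Wilson intervals as black bars. Lists are the merged replicates. For H3K4me3 in A549 the bars stand at 12.3%, 59.8% and 66.6%, and in B2B JunB and JunD are the targets whose bar is highest for stand-alone lncRNA.

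The stand-alone starts still stood out from the genome around them. Of the 1746.5 Mb of sequence more than 5 kb from coding starts, 1.15% lay within 1 kb of an H3K4me3 peak in A549 and 0.425% in B2B, so that the starts were marked 10.7 and 17.2 times as often as positions in that sequence. Pol II gave ratios of 7.28 and 8.53, H3K27ac 8.88 and 9.59, Med1 9.25 and 10.0, and Rad21 in B2B 7.19. It was lower for the sequence-specific factors. CTCF had 3.13 in B2B, JunB 3.76 in A549 and 2.94 in B2B, Jun 3.54 and 2.21, and JunD 6.56 and 2.23. These ratios describe the lists and were not tested.

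The marks met at the same starts. In A549, 772 of the 998 starts with H3K4me3 (77.4%, interval 74.7 to 79.8) also had pol II, beside 86.5% of all gene and 89.2% of coding starts with H3K4me3. In B2B, 394 of 590 did (66.8%, 62.9 to 70.5), beside 75.6% and 77.4%. All of H3K4me3, pol II, H3K27ac and Med1 were present at 513 starts in A549 (6.34%) and 332 in B2B (4.10%), where all gene starts gave 21.6% and 18.5% and coding starts 46.7% and 41.3%. At 277 starts (3.42%) all 4 were present in both lines, beside 16.5% of all gene starts. H3K27ac without H3K4me3 was found at 180 starts in A549 (2.22%, 1.92 to 2.57) and 284 in B2B (3.51%, 3.13 to 3.93), beside 1.7% and 2.97% of all gene starts. At coding starts it was 1.45% (1.25 to 1.67) and 3.83% (3.504 to 4.18).

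Peaks of H3K4me3 were narrower at the lncRNA starts than at coding starts, and summits of pol II lay less often close to the start. The median H3K4me3 summit lay 160.0 bp downstream of the start in A549, with the middle 50% between −180.8 and 354.2 bp, while at coding starts it lay 225.0 bp downstream, with the middle 50% between 100 and 427 bp. In B2B the middle 50% were alike, between −224.2 and 435.0 bp at lncRNA starts and −187.0 and 430.0 bp at coding starts. H3K4me3 summits within 250 bp of the start made up 45.9% at lncRNA and 40.8% at coding starts in A549, and 38.6% and 34.8% in B2B. For pol II in A549, 53.6% of the summits were within 250 bp of a lncRNA start and 70.4% within 250 bp of a coding start. The median width of the H3K4me3 peak in A549 was 1343 bp at lncRNA starts and 2214 bp at coding starts, and in B2B 644.5 and 1013 bp. Ranked within the A549 list, the H3K4me3 peaks at lncRNA starts were at the 60.9 percentile of fold enrichment and those at coding starts at the 79.6 percentile (medians). In B2B the order of this rank was turned, with 57.2 at lncRNA starts and 53.2 at coding starts, while by the −log10 q of the same peaks lncRNA starts were the lower in both lines, at 106 against 203 in A549 and 18.9 against 30.6 in B2B. Their summits in B2B held 88.0 and 134 reads over a background of 19.4 and 33.5 reads.

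**Figure D2:**
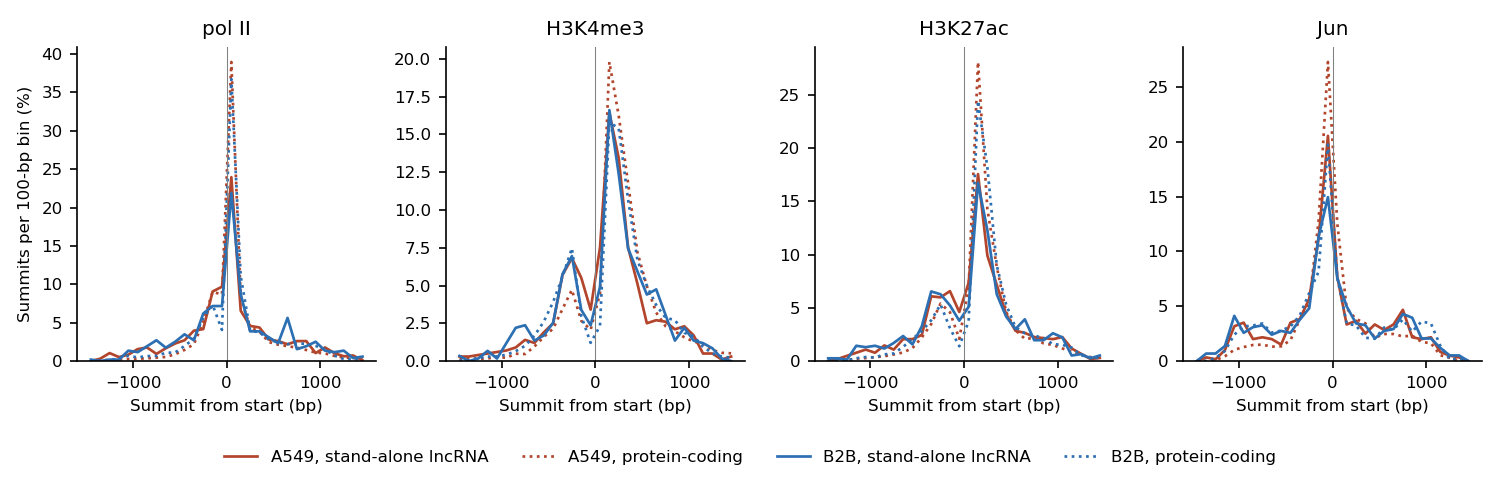
Position of peak summits relative to the gene start in bp (x axis, positive downstream) as a percentage of summits per 100-bp bin (y axis) for pol II, H3K4me3, H3K27ac and Jun. Red is A549 and blue B2B, solid lines are stand-alone lncRNA and dotted lines protein-coding starts. The dotted lines of pol II peak more sharply near the start than the solid ones, with 70.4% against 53.6% of A549 summits within 250 bp.

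To examine how the lines differed, the same 8096 starts were scored in both. H3K4me3 was present in both lines at 524 starts, in A549 and not B2B at 474, in B2B and not A549 at 66, and in neither at 7032. The A549 share exceeded the B2B share by 5.04 points (paired interval 4.49 to 5.60). Over all gene starts, 7.41% had H3K4me3 in A549 and not B2B and 0.789% the reverse, against 5.85% and 0.815% here. The A549 share was the higher on each of the 12 chromosomes. It was 18.7% against 9.33% on chromosome 9, and 12% against 9.52% on chromosome 6.

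Pol II followed the same direction. It was present in both lines at 423 starts, in A549 alone at 537 and in B2B alone at 93, a difference of 5.48 points (4.89 to 6.09). The corresponding shares of all gene starts were 10.5% and 0.877%. With the longer list shortened to the length of the other, the difference was 3.53 points. H3K27ac was present in both at 616 starts, in A549 alone at 404 and in B2B alone at 149, a difference of 3.15 points (2.59 to 3.72), where all gene starts gave 6.48% and 1.46%. Med1 went slightly the other way, with 437 starts in both, 161 in A549 alone and 202 in B2B alone, a difference of −0.506 points (−0.971 to −0.0442) beside 2.16% and 4.86% of all gene starts. The interval of the Med1 difference included 0 with lists of equal length (−0.346 points, −0.810 to 0.116) and in 6 of the 11 others tried. As a share of the B2B starts, 88.8% of those with H3K4me3 and 82% of those with pol II were also marked in A549. These shares were 96.96% and 95.8% over all gene starts. As a share of the A549 starts, 52.5% and 44.1% were also marked in B2B, beside 77.2% and 65.4% over all gene starts.

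**Figure D3:**
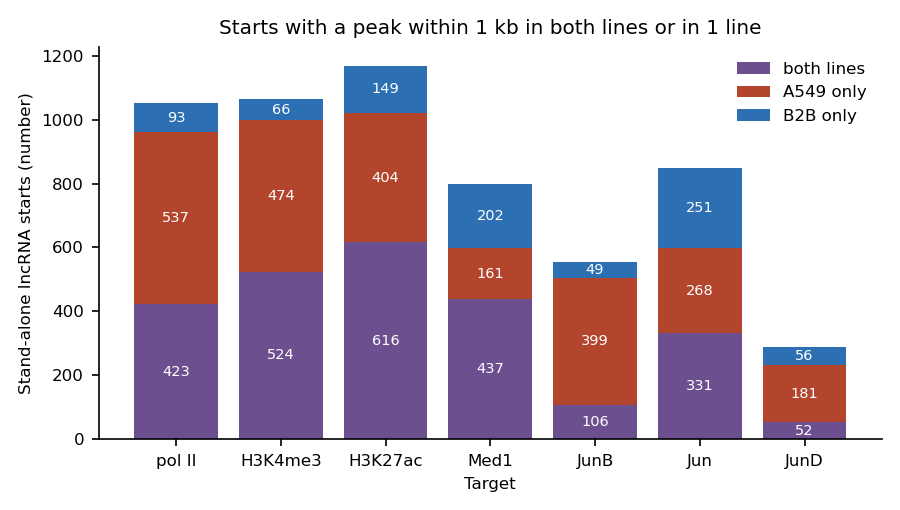
Number of stand-alone lncRNA starts (y axis) with a peak within 1 kb in both lines, in A549 only or in B2B only, for the 7 targets measured in both (x axis). Numbers inside the bars are counts of starts, and H3K4me3 shows 524, 474 and 66.

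Starts marked in 1 line had narrower H3K4me3 peaks. In A549 the H3K4me3 peaks were 1844 bp wide (median) at starts marked in both lines and 759.5 bp at those marked in A549 alone, at the 70.2 and 48.9 percentile of the list. In B2B they were 683.0 bp wide at starts marked in both and 394.0 bp at those marked in B2B alone, but there the percentile of fold enrichment was 53.1 for the former and 74.0 for the latter. The −log10 q had the other order, with medians of 20.2 and 8.52. The classes also differed in annotation. A single annotated transcript was recorded for 67.8% of genes with no H3K4me3 in either line, 50.4% of those marked in A549 alone and 42.9% of those marked in both. A symbol existed for 26.6%, 36.5% and 45.8% of them.

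Sequence, which the rule did not use, separated the classes. A window was called CpG-rich when its GC content was at least 50% and its observed CG count at least 0.6 of that expected from its bases. This held for 745 of the 8096 starts (9.20%), for 54.5% of coding starts and for 26.5% of all gene starts. Among the lncRNA starts it held for 60.3% of those with H3K4me3 in both lines (56.1 to 64.4), 36.3% of those marked in A549 alone (32.1 to 40.7), 13.6% of those marked in B2B alone (7.34 to 23.9) and 3.53% of those marked in neither (3.12 to 3.98). Coding starts had the same order over these classes, at 79.2%, 63.8%, 26.3% and 10.2%. The median observed over expected CG of the lncRNA starts was 0.730, 0.473, 0.320 and 0.206 in these classes. SNHG8 at 1.01 and LINC02406 at 1.02, printed above, lay at the high end, and LINC02362 at 0.433 was CpG-poor.

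The CpG-rich minority carried much of the marking. Of the 745 CpG-rich starts, 65.5% had H3K4me3 in A549 and 43.6% in B2B, 57.3% and 33.0% had pol II, and 43.0% and 45.5% had Med1. Of the 7351 CpG-poor starts, 6.94% had H3K4me3 in A549 and 3.60% in B2B, and 7.25% and 3.67% had pol II. The letters TATAAA, searched 40 to 21 bases before the start, were found at 1.31% of the lncRNA starts. They were found at 2.98% of coding starts and 1.66% of all gene starts. Where H3K4me3 lay in both lines, they were at 0.573% of lncRNA and 1.25% of coding starts. Where it lay in neither, they were at 1.35% and 6.21%.

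Recurrent sequence was more common at starts marked in both lines or in A549 alone than at unmarked starts. A window was called mostly repeated when over 50% of its words of 32 bases occurred more than once on chromosomes 1 to 22. This held for 825 starts (10.2%), for 20.6% of the starts with H3K4me3 in both lines and 21.1% of those marked in A549 alone. It held for 9.09% of those marked in B2B alone and 8.69% of those marked in neither line. Reads from such copies cannot always be placed at 1 copy. Without these starts the H3K4me3 difference between the lines was 4.32 points.

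Set against coding starts, the Jun family differed in direction from the general marks only for JunB and JunD in B2B. There they lay at 127 and 39 coding starts. JunB lay at 505 starts in A549 (6.24%) and 155 in B2B (1.91%), beside 11.3% and 1.07% of all gene starts. Jun lay at 599 starts in A549 (7.40%) and 582 in B2B (7.19%), beside 13.5% and 6.6%. JunD lay at 233 (2.88%) and 108 (1.33%), beside 6.42% and 0.581%. In A549 all 3 proteins were rarer at stand-alone lncRNA than at coding starts, with differences of −15.0 points (JunB), −18.1 points (Jun) and −9.82 points (JunD). In B2B, JunB and JunD were the more frequent at stand-alone lncRNA starts, by 0.904 points (0.569 to 1.26) and 1.02 points (0.769 to 1.31), while Jun was lower by 1.39 points (−1.39, interval −2.13 to −0.640). Shortening the longer list of each protein to the length of the other left these differences at −1.62 points for JunB in A549 (−2.10 to −1.12), −9.38 points for JunD in A549 (−10.1 to −8.71) and −1.03 points for Jun in B2B (−1.70 to −0.338). The B2B lists of JunB and JunD were the shorter ones, so their values could not change there. With a −log10 q of at least 5 they exceeded coding starts by 0.813 points (0.487 to 1.16) and 0.931 points (0.693 to 1.202). The background of the caller at B2B JunB peaks had a median of 2.99 reads at lncRNA starts and 6.41 reads at coding starts, and its part in this was not tested.

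Between the lines, JunB was present in both at 106 starts, in A549 alone at 399 and in B2B alone at 49, a difference of 4.32 points (3.83 to 4.84). Over all gene starts 10.5% had JunB in A549 alone and 0.289% in B2B alone. The A549 list held 19926 JunB peaks and the B2B list 6318, and with both at 6318 the difference fell to 0.618 points (0.285 to 0.959). JunD was present in both at 52 starts, in A549 alone at 181 and in B2B alone at 56, a difference of 1.54 points (1.18 to 1.93), beside 6.19% and 0.347% of all gene starts. Its lists were of nearly equal length. Jun was present in both at 331 starts, in A549 alone at 268 and in B2B alone at 251, a difference of 0.210 points with an interval that included 0 (−0.343 to 0.764). Over all gene starts, by contrast, 9.13% had Jun in A549 alone and 2.24% in B2B alone. The Jun difference depended on the setting. Shortening the B2B list to the length of the A549 list gave 1.42 points (0.889 to 1.96). It was 0.729 points within 500 bp of the start (0.231 to 1.23), 0.703 points with coding gene starts as the only coding start sites (0.164 to 1.24) and 0.749 points outside coding gene bodies (0.104 to 1.40). These 4 intervals lay above 0 and those of the other 9 alternatives included it. It also differed with sequence, at 14.6 points (11.8 to 17.5) at CpG-rich and −1.25 points (−1.78 to −0.728) at CpG-poor starts. For JunD these values were 14.4 points (11.9 to 17.1) and 0.245 points with an interval that included 0 (−0.0595 to 0.554), and for JunB 20.3 and 2.71 points.

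Jun-bound lncRNA starts lacked H3K4me3 less often than lncRNA starts as a whole, and more often than Jun-bound coding starts. Of all 8096 starts, 87.7% lacked H3K4me3 in A549 and 92.7% in B2B, beside 67.5% and 74.1% of all gene starts and 33.4% and 44% of coding starts. Among starts with Jun, 253 of 599 lacked it in A549 (42.2%, interval 38.3 to 46.2), beside 13.4% at all gene and 4.25% at coding starts with Jun. In B2B 427 of 582 did (73.4%, 69.6 to 76.8), beside 45.5% and 20.7%. For JunB the shares were 35.8% in A549 and 65.8% in B2B, beside 11.2% and 54.1% at all gene starts and 3.30% and 26.0% at coding starts. For JunD they were 15.5% and 62.0%, beside 4.3% and 60.7% at all gene starts and 1.00% and 33.3% at coding starts. All 3 proteins were present at 189 lncRNA starts in A549 (2.33%), of which 34 (18.0%) lacked H3K4me3, and at 86 in B2B (1.06%), of which 51 (59.3%) lacked it. In A549 all 3 lay at 1111 coding starts (8.84%), of which 11 (0.990%) lacked H3K4me3. In B2B they lay at 30 coding starts (0.239%), of which 8 (26.7%) lacked it.

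To keep the promoter mark the same in both lines, the 524 starts with H3K4me3 in both were examined. Here JunB lay at 39.7% in A549 and 7.44% in B2B, a difference of 32.3 points (28.1 to 36.4). Jun lay at 44.1% and 23.9%, a difference of 20.2 points (16.1 to 24.3), and JunD at 27.3% and 5.73%, a difference of 21.6 points (17.8 to 25.5). With lists of equal length the differences were 4.96, 23.7 and 19.3 points. Coding starts with H3K4me3 in both lines had JunB at 35.2% in A549 and 1.25% in B2B, Jun at 41.9% and 11.8%, and JunD at 22% and 0.320%. The lncRNA starts thus exceeded such coding starts in B2B by 6.19 points (4.22 to 8.77) in JunB, by 12 points (8.48 to 15.9) in Jun and by 5.41 points (3.71 to 7.74) in JunD. In A549 they exceeded them by 4.52 points for JunB (0.263 to 8.91) and 5.26 for JunD (1.48 to 9.34), and the 2.17 points for Jun had an interval that included 0 (−2.19 to 6.60). Over all starts with a Jun peak, the caller background in B2B had a median of 1.72 reads at lncRNA and 5.17 reads at coding starts. In A549 it was 1.51 and 1.53 reads. The part of this background in the excess was not tested.

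Among the starts with H3K4me3 in both lines, the Jun proteins of B2B took a larger share of the CpG-poor than of the CpG-rich starts, most clearly JunB and JunD. Of the 524 starts, 316 were CpG-rich and 208 CpG-poor. In B2B, JunB lay at 8 of the CpG-rich (2.53%, 1.29 to 4.92) and 31 of the CpG-poor starts (14.9%, 10.7 to 20.4), and JunD at 4 (1.27%) and 26 (12.5%). Jun of B2B was closer to even, with 60 CpG-rich (18.99%, 15.05 to 23.7) and 65 CpG-poor starts (31.3%, 25.3 to 37.8). In A549, JunB lay at 132 of the CpG-rich (41.8%, 36.5 to 47.3) and 76 of the CpG-poor starts (36.5%, 30.3 to 43.3), and JunD at 95 (30.1%) and 48 (23.1%). Over all 8096 starts, marked or not, the order of Jun in B2B was turned, with 9.93% of CpG-rich (7.99 to 12.3) and 6.91% of CpG-poor starts (6.35 to 7.51), and the intervals overlapped for JunB at 1.48% and 1.96% and for JunD at 0.805% and 1.39%. Coding starts showed the same order at a lower level in B2B, where JunB lay at 0.862% of CpG-rich and 2.72% of CpG-poor ones.

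**Figure D4:**
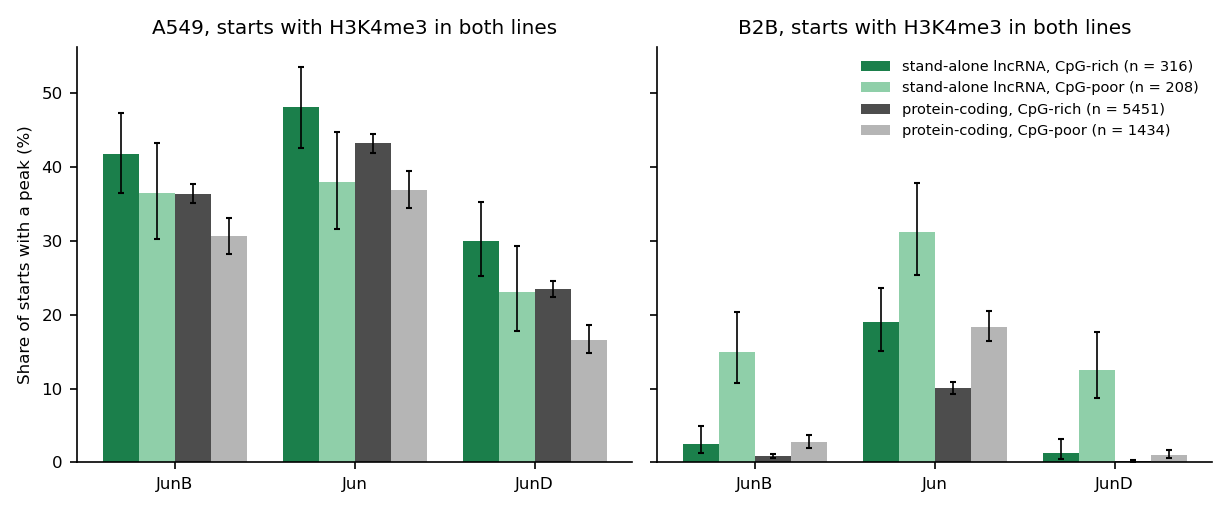
Share of starts with a JunB, Jun or JunD peak (percent, y axis) among starts with H3K4me3 in both lines, for stand-alone lncRNA and protein-coding genes split into CpG-rich and CpG-poor windows, with 95% Wilson intervals. In A549 the CpG-rich bars are the higher of each pair, and in B2B the CpG-poor bars are, as in the 2.53% and 14.9% of lncRNA starts with JunB.

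The AP-1 letters were read at the summits. The letters TGAGTCA on either strand, whose reverse complement is TGACTCA, were searched in the 50 bases to either side of each summit. In A549 they were present at 48.1% of the JunB summits at lncRNA starts and 20% of those at coding starts. The Jun summits of A549 held them in 43.4% and 16.5% of cases, and the JunD summits in 36.4% and 11.1%. In B2B the JunB summits held them in 57.2% of cases at lncRNA starts and 73.7% at coding starts, the Jun summits in 45.0% and 35.3%, and the JunD summits in 58.3% and 64.9%. The B2B coding shares of JunB and JunD rested on 114 and 37 peaks, and their intervals overlapped those at lncRNA starts. The lncRNA summits of A549 came close to the whole A549 lists, where 46.1% of JunB, 42.3% of Jun and 35.4% of JunD peaks held the letters. The whole B2B lists stood lower than their lncRNA summits, at 52.8% of JunB, 39.5% of Jun and 44.7% of JunD peaks. Within A549, JunB summits at lncRNA starts without H3K4me3 held them in 63.3% of cases and those with H3K4me3 in 38.4%. In the 300-base promoter windows the letters were found at 6.90% of stand-alone lncRNA starts, 4.26% of coding starts and 4.71% of all gene starts. Where H3K4me3 lay in neither line, they were at 6.91% of lncRNA and 7.12% of coding starts. With H3K4me3 in both lines the shares were 4.01% and 2.60%, in A549 alone 9.49% and 3.76%, and in B2B alone 10.6% and 8.33%.

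The summit windows of 5 starts bound by all 3 Jun proteins are shown as examples that carry these letters, which not every such start did. Each is 101 bases of hg38 centred on the A549 Jun summit and written on the plus strand, with the AP-1 letters in capitals. At LASTR, a lncRNA known for its part in splicing, and at ENSG00000234943 the 3 proteins were bound in A549 and none in B2B. At CYTOR, ENSG00000257925 and LURAP1L-AS1 all 3 were bound in both lines.
LASTR (chr10:5632531-5632631, plus strand): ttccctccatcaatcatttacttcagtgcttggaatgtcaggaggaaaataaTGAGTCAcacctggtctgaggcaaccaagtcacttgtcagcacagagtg
ENSG00000234943 (chr2:54545911-54546011, plus strand): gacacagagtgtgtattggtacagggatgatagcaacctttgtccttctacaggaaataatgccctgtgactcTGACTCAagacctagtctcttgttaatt
CYTOR (chr2:87455363-87455463, plus strand): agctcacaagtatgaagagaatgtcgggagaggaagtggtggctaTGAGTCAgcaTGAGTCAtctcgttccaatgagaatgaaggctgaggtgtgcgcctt
ENSG00000257925 (chr12:47278244-47278344, plus strand): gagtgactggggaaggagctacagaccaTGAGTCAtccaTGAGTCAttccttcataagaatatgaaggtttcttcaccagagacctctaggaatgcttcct
LURAP1L-AS1 (chr9:12814538-12814638, plus strand): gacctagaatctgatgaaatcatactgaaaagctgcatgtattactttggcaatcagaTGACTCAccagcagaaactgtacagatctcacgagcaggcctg
At CYTOR and ENSG00000257925 the letters occurred 2 times, and the nearest copy was centred 2.0 and 8.0 bp from the summit. The letters were in none of the windows around the A549 Jun summit of ENSG00000286380 and the B2B Jun summits of ENSG00000226087, ENSG00000261382, ENSG00000286871 and LINC02380, which are named in the next paragraph.

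All 3 Jun proteins were bound in A549 and none in B2B at 67 starts in 57 clusters, and the reverse held at 10 starts. As shares of the starts these were 0.828% and 0.124%, beside 2.79% and 0.0507% of all gene starts, and at coding genes 741 (5.89%) and 4 (0.0318%). Of the 67 starts, 6 lacked H3K4me3 in both lines, and of the 10 starts, 9 did. Among all 8096 starts 86.9% lacked it in both lines, and among all 39438 gene starts 26293 did. The 5 of the former with the highest summed fold enrichment were ENSG00000253339, ENSG00000234943, LASTR, ENSG00000288055 and ENSG00000286380. LASTR, on chromosome 10 at 5632566 and 9.25 kb from the start of ASB13, had a JunB fold enrichment of 24.4 in A549, with 38.3 for Jun and 9.57 for JunD, at the 96.8, 95 and 89.0 percentile of their lists. In the same line it had 6.45 for pol II and 5.52 for H3K4me3, and no list of B2B had a peak there. The 5 of the latter were ENSG00000226087, ENSG00000261382, ENSG00000286871, LINC02380 and PAPPA-AS2. None of these 5 carried H3K4me3 in either line, and their Jun fold enrichment in B2B was between 34.2 and 50.4.

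At 46 starts in 41 clusters (0.568% of the starts, beside 0.205% of all gene starts) all 3 were bound in both lines. The 5 with the highest summed fold enrichment, a set chosen after its values were seen, included CYTOR, a lncRNA linked to the cytoskeleton, and its neighbour NCAL1. These 2 share their peaks, and the window of NCAL1 was 92.6% repeated words. CYTOR, on chromosome 2 and 293 kb from a coding start, had a peak in all 16 lists. JunB reached a fold enrichment of 27.2 there in A549, Jun 46.4 and JunD 10.7, and in B2B they reached 24.7, 59.0 and 14.8. Fold enrichment depends on the background of each list, so its size is not compared between lines.

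CTCF and Rad21 were measured here in B2B. CTCF, the factor that binds insulators, lay at 935 starts (11.5%), beside 15.7% of all gene starts, and Rad21, a ring subunit of cohesin, at 859 (10.6%), beside 27.4%. At the 524 starts with H3K4me3 in both lines, CTCF lay at 49.2% and Rad21 at 77.1%, and 203 of them (38.7%) had Rad21 without CTCF. CTCF lay at 43.4% of the CpG-rich and 58.2% of the CpG-poor ones, beside 38.5% and 46.1% of coding starts so marked. Rad21 lay at 85.4% and 64.4%, beside 92.4% and 77.1% of such coding starts. Starts with CTCF, Rad21 or both in combination were counted for the stand-alone lncRNA genes only. At the 7032 starts with no H3K4me3 in either line, 186 had both, 302 had CTCF without Rad21 and 48 had Rad21 without CTCF. The 5 of the 186 with the highest CTCF fold enrichment were ENSG00000286661, ENSG00000255790, ENSG00000262211, ENSG00000255866 and ENSG00000273110, with values between 67.3 and 88.8. ENSG00000286661, on chromosome 3 at 196609410, had the highest, with a Rad21 fold enrichment of 43.5 and 1 further peak, of Med1 in B2B at 5.26.

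The shares varied with distance from the coding genes. H3K4me3 in A549 marked 12.3% of the starts 5 to 10 kb from a coding start (10.4 to 14.6), 15.8% at 10 to 20 kb (13.7 to 18.0), 15.3% at 20 to 50 kb, 14.1% at 50 to 100 kb, 9.72% at 100 to 200 kb, 6.88% at 200 to 500 kb (5.53 to 8.52) and 7.55% beyond 500 kb (5.69 to 9.95). In B2B it marked 7.50%, 10.3%, 9.73%, 7.62%, 5.87%, 3.26% and 3.02%. Jun in B2B lay at 8.27% of the starts at 5 to 10 kb, 8.98% at 10 to 20 kb, 5.34% at 200 to 500 kb and 2.85% beyond 500 kb, and Jun in A549 at 8.38%, 10.1%, 3.98% and 2.35%. JunB in B2B stayed between 0.839% and 2.59% across the bins, with overlapping intervals for most.

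**Figure D5:**
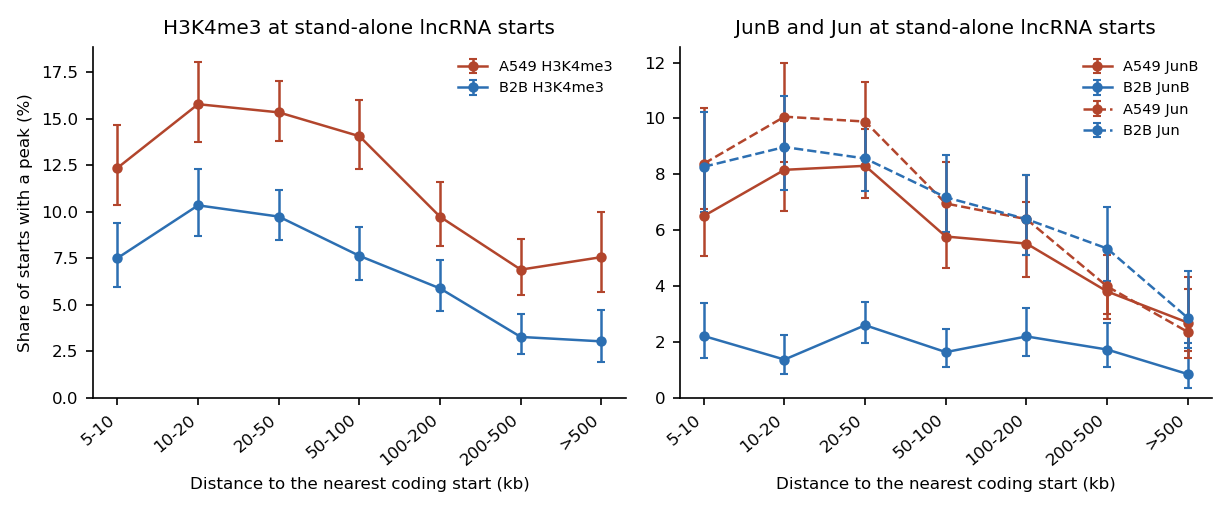
Share of stand-alone lncRNA starts with a peak (percent, y axis) by distance to the nearest protein-coding start (bins in kb, x axis), for H3K4me3 on the left and JunB (solid) and Jun (dashed) on the right, with 95% Wilson intervals. A549 is red and B2B blue. The H3K4me3 line of A549 runs from 12.3% in the first bin over 15.8% to 6.88% at 200 to 500 kb and 7.55% beyond.

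Known lncRNA groups were described by lists of symbols. For comparison, H3K4me3 lay in both lines at 6.47% of the 8096 starts and at 9910 of the 39438 gene starts. Of 10 stand-alone hosts of small nucleolar RNAs, 9 carried H3K4me3 in both lines and SNHG27 in A549 alone. Pol II lay at all 10 in A549 and 9 in B2B. JunB lay at 6 of them in A549 and 0 in B2B, Jun at 7 and 1, and JunD at 5 and 0. Of all gene starts, JunB lay at 11.3% and 1.07%, Jun at 13.5% and 6.6%, and JunD at 6.42% and 0.581%. Of the 524 stand-alone starts with H3K4me3 in both lines, JunB lay at 39.7% and 7.44%, Jun at 44.1% and 23.9%, and JunD at 27.3% and 5.73%. SNHG8 had a fold enrichment of 43.8 for H3K4me3 and 106 for pol II in A549, where JunB reached 5.16, Jun 11.5 and JunD 6.58. In B2B it had 9.69 for H3K4me3 and 8.57 for pol II, with no Jun-family peak. EPB41L4A-AS1, another host, was CpG-poor and had 41.3 for H3K4me3 in A549 and 9.64 in B2B, at the 89.8 and 94.5 percentile.

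Hosts of microRNAs were more divided. Of 39 stand-alone hosts, 11 carried H3K4me3 in both lines, 2 in A549 alone, 1 in B2B alone and 25 in neither. Of all 39438 gene starts, 9910 carried it in both lines and 26293 in neither. MIRLET7A1HG, a host of let-7 family microRNAs, had a fold enrichment of 30.8 for H3K4me3 in A549 and 4.41 in B2B, and MIR31HG, the host of miR-31, 24.2 and 2.96. MIR181A1HG was marked in both lines, with 32.0 in A549 and 37.8 in B2B, the latter far above the B2B median of 3.86 at lncRNA starts, and it had no H3K27ac or Med1 peak in either line. MIR137HG was the host marked in B2B alone, at 2.89. MIR205HG, the host of a microRNA of basal epithelium and the single stand-alone member of the epithelial and lung list, had no peak in any list.

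Of 18 stand-alone cancer-associated lncRNAs, 8 carried H3K4me3 in both lines, 3 in A549 alone and 7 in neither. The share marked in both lines was 6.47% over all stand-alone starts, and 9910 of 39438 gene starts were so marked. MALAT1 and NEAT1, nuclear RNAs of speckles and paraspeckles, had pol II and Med1 in both lines. Med1 fold enrichment at MALAT1 was 64.9 in A549 and 47.4 in B2B, at the 99.9 and 99.8 percentile. JunB, Jun and JunD lay at MALAT1 in A549, at 9.72, 23.6 and 7.72, and none did in B2B, where Jun at NEAT1 stood at the 0.634 percentile of its list. LUCAT1, a stress-responsive lncRNA first described in lung cancer that lies on chromosome 5, had H3K4me3 in A549 at 12.9 and none in B2B, with JunB at 27.5, Jun at 62.4 and JunD at 14.3 in A549 and at 6.47, 25.7 and 5.70 in B2B. LINC00707 carried all 3 Jun proteins in both lines as well, with Jun at 45.9 in A549 and 42.0 in B2B. H19, AFAP1-AS1 and CASC9 had no peak in any list. Of 4 p53 and stress lncRNAs, NEAT1 was marked in both lines, LUCAT1 and PURPL in A549 alone, and of 3 inflammation lncRNAs CHROMR and MIR3142HG were marked in both.

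Among the starts with H3K4me3 in A549 and not B2B, the highest fold enrichments were at ANKRD20A5P (56.0), ENSG00000286380 and ENSG00000290319 (47.7 each), FAM66E (47.2), LINC02406 (46.4) and FAM66D (42.3). The windows of ANKRD20A5P, FAM66E and FAM66D were 88.8%, 100% and 88.1% repeated words. ENSG00000286380 and ENSG00000290319 start 190 bp apart on opposite strands of chromosome 7 at 129780220 and 129780410, share their peaks and had none of the repeats. There A549 had pol II at 44.9, H3K27ac at 83.3, Med1 at 12.3, JunB at 15.4, Jun at 29.2 and JunD at 7.48, while B2B had H3K27ac at 2.92, at the 7.49 percentile, Med1 at 3.83 and Rad21 at 4.76. LINC02406, on chromosome 12, had pol II at 22.6 and H3K27ac at 65.5 in A549, and of the B2B lists CTCF and Rad21.

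Among the starts with H3K4me3 in B2B and not A549, the highest were ENSG00000286707 (18.7), SOCAR (17.4), ENSG00000289185 (12.8), LINC01111 (12.4), LINC02362 (12.1) and HCP5 (12). HCP5, a gene among the HLA class I genes of chromosome 6, had pol II at 10.1, H3K27ac at 6.25 and Med1 at 4.74 in B2B and no peak in A549. ENSG00000286707, on chromosome 2, had pol II at 9.27, H3K27ac at 19.8 and CTCF at 5.19 in B2B, and SOCAR had pol II in both lines, at 7.66 in A549 and 35.3 in B2B, with 88.1% repeated words. LINC02362 had H3K4me3 alone of all 16 targets and lines.

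The highest in both lines, by the lower of the 2 percentiles, were ENSG00000228862, SNHG8, HSD17B7P2, EPB41L4A-AS1, LINC00882 and ENSG00000287657. ENSG00000228862, 25.2 kb from CHD7, had H3K4me3 at 54.5 in A549 and 8.87 in B2B, and H3K27ac at 147 and 5.22. LINC00882, on chromosome 3, had H3K4me3 at 40.3 in A549 and 9.66 in B2B, pol II at 20.1 and 7.99, and no Jun-family peak in either line. Besides CYTOR and NCAL1, the starts with a peak in all 16 lists were ENSG00000234292, ENSG00000286638, ENSG00000244619, ENSG00000273077, ENSG00000289123, ENSG00000290057 and LINC01132, named because of this count. ENSG00000234292 and ENSG00000286638 start on opposite strands of chromosome 5 at 91281142 and 91280229 and share their peaks, so that the 9 starts represent 7 places.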

How the data were processed

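ChIP-seq peak lists of A549 and B2B cells were analysed, 1 list for each of 16 combinations of line and target. Per the submitters' processing notes and the study's methods text, reads were aligned by the authors to hg38 with Bowtie2 2.4.4 and stripped of duplicates with their own code. The 2 replicates were then merged and scaled with SAMtools 1.13, and MACS2 2.2.7.1 called the peaks. Caller options and the control were not given in the sources used here. Samples of input DNA were left out. Each deposited peak has a fold enrichment, the ratio of its summit to the background of the caller. The deposited −log10 p-values are those of the caller at the summit. The deposited score is 10 times the −log10 q, which the authors' lists also give on its own. The lowest −log10 q of a list was between 2.00 and 2.15, so that the lists reach to a q of about 0.01. Because replicates were merged before calling, shares of starts carry intervals for counting error only, which treat starts as independent although neighbouring starts share peaks.

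Gene starts came from GENCODE release 44. All annotated transcript starts of coding genes counted as coding start sites for the 5 kb rule, and coding genes themselves were scored at their gene start. Chromosomes 1 to 12 were used since 4 lists (A549 pol II, A549 H3K27ac and both Med1 lists) do not cover chromosomes 13 to 22. Peaks were intersected with windows of 1 kb to either side of each start. On simulated intervals this overlap gave the same counts as bedtools 2.31.1. Shares have Wilson intervals, differences between classes Newcombe intervals, and differences between lines on the same starts paired Newcombe intervals, all at 95%. Percentiles rank a peak by fold enrichment within its own list on chromosomes 1 to 12. Sequence was read from hg38 on the strand of the gene. Repeated words of 32 bases were counted in place of soft-masked bases, which the upper-case genome used here does not mark. Python 3.11.15, NumPy 2.4.6, pandas 2.3.3, SciPy 1.17.1 and Matplotlib 3.10.9 were used, and the interval functions and the window overlap were tested on simulated data.

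The named genes were the 6 starts with the highest H3K4me3 fold enrichment in each class (A549 only, B2B only, and both by the lower percentile), the 5 with the highest summed Jun-family fold enrichment bound by all 3 proteins in 1 line and none in the other, the 5 with the highest CTCF among those with CTCF and Rad21 and no H3K4me3, and the stand-alone members of 6 symbol lists (hosts of small nucleolar RNAs, hosts of microRNAs, cancer-associated, p53 and stress, epithelial and lung, inflammation). The members and these lists were chosen with earlier results of these data known. Of the alternatives, 11 settings were planned, and 2 further settings and the checks of the Jun family with lists of equal length were added after seeing the data.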

Additional observations from a re-analysis of the deposited data

Results flagged for a closer look

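The difference between A549 and B2B was itself different at stand-alone lncRNA and at coding starts for all 7 targets measured in both lines, with Newcombe intervals that cover counting error over starts and no replicate error. For pol II the A549 share exceeded the B2B share by 5.48 points at stand-alone lncRNA starts and 16.3 points at coding starts, which gives −10.8 points between them (−11.7 to −9.90). The same quantity was −5.56 points for H3K4me3 (−6.38 to −4.74) and −5.34 points for H3K27ac (−6.15 to −4.51). It was positive for Med1, at 5.66 points (4.88 to 6.43), where the B2B share exceeded the A549 share by more at coding starts. The Jun family gave −15.9 points (−16.8 to −15.0) for the protein JunB, −16.7 points (−17.6 to −15.7) in the case of Jun, and −10.8 points (−11.5 to −10.2) in that of JunD.

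These values are differences of percentages and depend on how common a target is in each class. As a ratio of the A549 to the B2B share, H3K4me3 stood at 1.69 at stand-alone lncRNA and 1.19 at coding starts, and pol II at 1.86 and 1.37, the opposite order. JunB stood at 3.26 and 21.0, and JunD at 2.16 and 40.9, the same order as the difference. The JunB lists differed in length, with 19926 peaks in A549 and 6318 in B2B. Lists of equal length were a planned setting, but their use on this comparison was added after seeing the data. With both lists at 6318, the JunB difference between the classes was −2.52 points (−3.01 to −2.05). The ratios of the A549 to the B2B share were then 1.32 at stand-alone lncRNA and 4.11 at coding starts. For the other 6 targets lists of equal length kept the direction, with intervals that left out 0, and the values lay between −17.0 points for Jun and 5.26 points for Med1. At B2B pol II peaks the caller background had medians of 10.3 reads at lncRNA and 31.4 reads at coding starts. It was 19.4 and 33.5 for H3K4me3, 17.0 and 29.5 for H3K27ac, 2.99 and 6.41 for JunB, and 1.72 and 5.17 for Jun. JunD had 2.64 and 3.35 reads, and Med1 2.24 and 2.19. In A549 it was nearly the same in both classes, at 2.36 reads for pol II. The part of this background in the class differences was not tested.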

How the results depend on the processing

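No paired analysis was possible because the replicates were merged before peaks were called, and leaving out a replicate could not be run for the same reason. Of 114 alternative values of the differences, 110 had the direction reported. The 4 others were all of Jun between the lines, whose interval included 0 throughout these. Of 13 alternatives for Jun, 4 gave an interval above 0, and of 12 for Med1, 7 gave an interval that included 0. Below, differences are A549 minus B2B in percentage points unless the coding class is named, and the cause of a shift was not tested. At 500 bp JunB gave 3.61, and stand-alone minus coding H3K4me3 in B2B −47.2. At 2 kb pol II gave 6.26, H3K4me3 5.82, JunB 5.35 and Jun −0.556. With summits in place of peaks, stand-alone minus coding H3K4me3 in A549 was −50.5. At a −log10 q of at least 5, JunD gave 1.15. Lists of equal length gave 3.53 in pol II, 4.26 in H3K4me3, 2.45 in H3K27ac, 0.618 in JunB and 1.42 in Jun. With coding gene starts only as start sites, JunB gave 5.02 and JunD 1.94, and the coding comparison −52.8 in A549 and −47.3 in B2B. With all transcript starts of a lncRNA, pol II gave 6.27, H3K4me3 5.83, JunB 5.27 and the coding comparison in A549 −52.5. With 1 start per cluster JunD gave 1.18, and the coding comparison −55.5 and −49.9. Outside coding gene bodies H3K4me3 gave 5.92, H3K27ac 4.003, JunB 4.95 and JunD 2.07, and the coding comparison −52.1 and −47.4. Among genes with a symbol pol II gave 6.41, H3K4me3 6.28, H3K27ac 3.90, JunB 6.50, Jun 0.910 and JunD 2.86, and the coding comparison −48.7 and −44.4. Of the settings added after seeing the data, chromosomes 13 to 22 gave 2.15 in JunD, and starts in mostly unique sequence gave 4.68 in pol II, 4.32 in H3K4me3, 2.42 in H3K27ac and −55.7 in the coding comparison of A549. Of 202 alternative shares of single lists, 5 shifted by over 1.5 times, among them JunB in A549 at equal length (2.53%), H3K4me3 in B2B among genes with a symbol (11.6%) and JunD in B2B at 2 kb (2.06%). The other 2 were on chromosomes 13 to 22, JunB in B2B at 1.27% and JunD in B2B at 0.855%. Numbers of reads per library were not given in the sources used here, so an absent peak can be a start below the reach of its list.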
